A study of Arabidopsis thaliana with 9 samples.

Results

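The comparison described here set the 3 libraries of Arabidopsis (Arabidopsis thaliana) seedlings kept for 12 h at 4 °C against the 3 libraries of seedlings sampled at 22 °C before the transfer, 6 of the 9 RNA-seq libraries of the series. All 3 libraries of each label were used, so no measured value decided which samples entered. Both groups were wild-type Col-0 seedlings, labelled as 10 days old, grown on plates under long days, and each library was made from a pool of seedlings from its own plate. The cold seedlings had been moved to 4 °C at zeitgeber time 4 (hours after lights on) under light of about 25 µE, so the 12 h samples were taken at zeitgeber time 16, whereas the 22 °C samples were taken at zeitgeber time 4 under about 100 µE. Cold, time of day and light intensity therefore cannot be told apart in any difference below. Whole seedlings were extracted, and in such bulk samples fewer cells of a type and less RNA per cell cannot be told apart either.

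Plants of temperate origin respond to low, non-freezing temperature by cold acclimation. Within hours they remobilise starch into soluble sugars and build up galactinol, raffinose and proline. These are known as compatible solutes and membrane protectants. Membrane lipids are also desaturated. Growth slows over the same period through the auxin, gibberellin and brassinosteroid pathways, and the RNA machinery is affected because secondary structure is more stable and splicing and ribosome assembly are slower in the cold. Many of the genes involved are also under control of the circadian clock, with evening peaks for starch-degrading enzymes and for glycine-rich RNA-binding proteins.

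For each locus the estimates of all its transcripts were added up. The 12 h libraries held between 15910839 and 20881860 assigned reads and the 22 °C libraries between 17923585 and 21647801. On the first principal component, which carried 64.0% of the variance, the 12 h libraries lay between 74.2 and 79.0 and the 22 °C libraries between -66.0 and -62.5, and no library lay nearer to another group than to its own. Values below are read counts scaled to normalised library size (CPM), log2 fold changes are those of 12 h over 22 °C with their standard error from the edgeR quasi-likelihood fit, and a gene was called when its adjusted p was under 0.05 and its absolute log2 fold change was at least 0.5. Of 20460 genes tested, 3166 (15.5%) were called higher and 3616 (17.7%) lower at 12 h, 33.1% in all, with a median log2 fold change of -0.03. For every gene given below with values of the single libraries, the 3 libraries of 12 h and the 3 of 22 °C did not overlap. With upper-quartile scaling the median moved by a further -0.13 and the split became 2559 higher and 4739 lower, so that 35.1% of the called genes were higher, against 46.7% with the scaling used here.

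In all, 4 themes with 54 gene lists were followed. Of the measured members, 86 of 472 metabolic genes were called higher and 88 lower, 40 of 227 growth genes higher and 57 lower, 95 of 338 hormone genes higher and 87 lower, and 49 of 279 RNA-processing genes higher and 17 lower. The median log2 fold changes of the themes were -0.06, -0.18, 0.03 and 0.23. These counts stand beside 15.5% higher and 17.7% lower over all genes tested, and no test of a theme or list against other genes was made. In the plot of called shares per list, trehalose, the cellulose list and galactinol and raffinose reached furthest to the higher side, and the flavonoid and aliphatic glucosinolate lists furthest to the lower side.

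**Figure D1:**
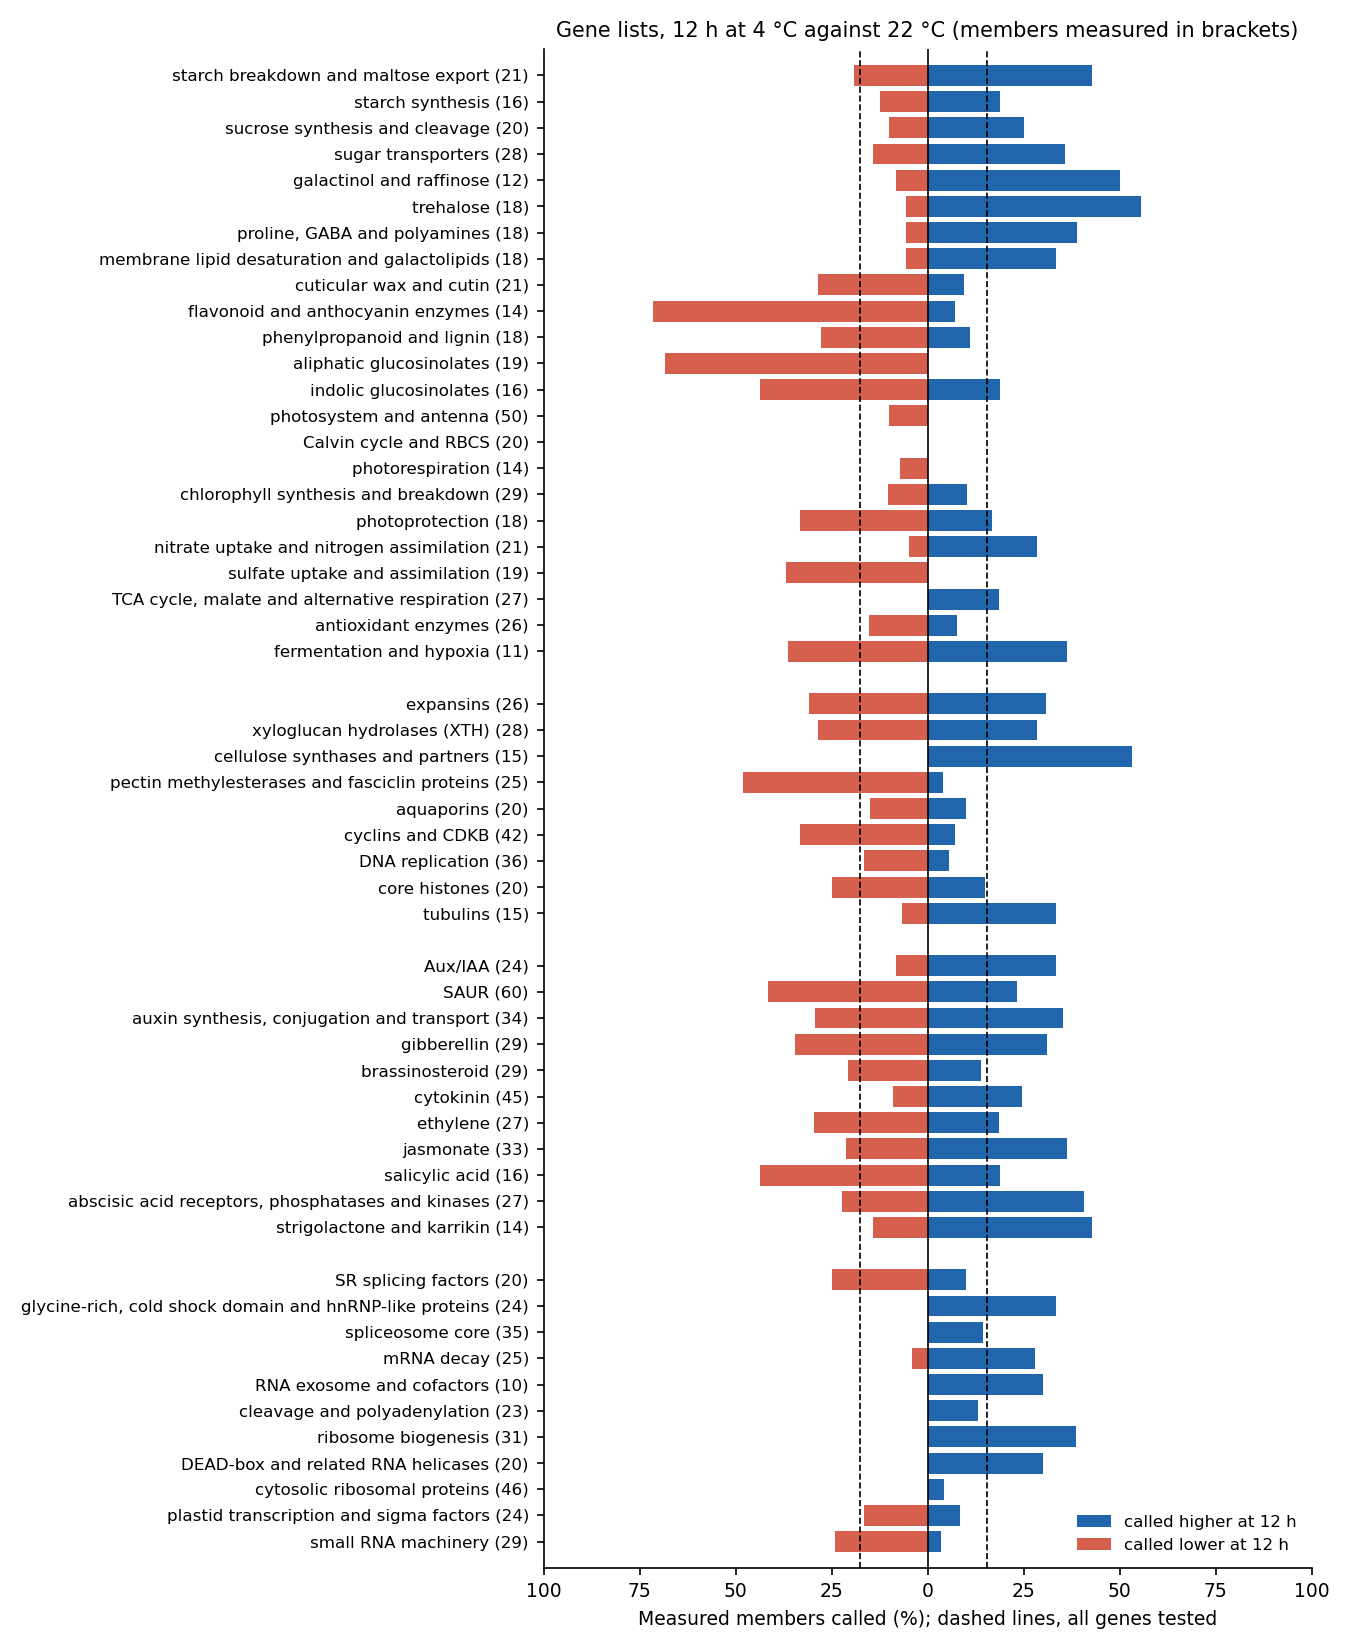
Percentage of the measured members of each gene list called higher (blue, to the right) or lower (red, to the left) at 12 h of 4 °C against 22 °C, with the number of measured members in brackets. Dashed lines mark the 15.5% and 17.7% of all genes tested, and the aliphatic glucosinolate list reaches 68.4% lower with no member higher.

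The promoters of 5 members that rose are given first, because each carries an element that was searched for in all promoters. GOLS3, encoding a galactinol synthase, and RS5, encoding a raffinose synthase, rose strongly and hold the core CCGAC of the C-repeat or dehydration-responsive element, the element bound by CBF factors. GRP7, encoding a glycine-rich RNA-binding protein, and TZF5, encoding a tandem zinc finger protein, hold the evening element AAAATATCT known from clock-controlled genes. REIL2, encoding a ribosome maturation factor, holds the telo-box AAACCCTA known from ribosomal genes. The sequences are the 250 bases before the annotated start from RefSeq, assembly TAIR10.1, read 5′ to 3′ on the strand of the gene, with the element in capitals on whichever strand it was found. They lie at chr1:3019389-3019638 (+ strand), chr5:16161199-16161448 (+ strand), chr2:9266558-9266807 (- strand), chr5:17831337-17831586 (- strand) and chr2:10402935-10403184 (- strand).
GOLS3: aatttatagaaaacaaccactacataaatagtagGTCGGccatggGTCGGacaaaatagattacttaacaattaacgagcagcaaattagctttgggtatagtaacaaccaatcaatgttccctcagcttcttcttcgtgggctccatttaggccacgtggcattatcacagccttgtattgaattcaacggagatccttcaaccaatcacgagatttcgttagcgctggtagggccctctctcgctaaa
RS5: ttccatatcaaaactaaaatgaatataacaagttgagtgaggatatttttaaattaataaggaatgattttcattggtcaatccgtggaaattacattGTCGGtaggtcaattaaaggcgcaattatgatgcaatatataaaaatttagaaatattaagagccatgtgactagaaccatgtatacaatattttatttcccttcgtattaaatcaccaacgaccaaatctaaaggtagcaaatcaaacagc
GRP7: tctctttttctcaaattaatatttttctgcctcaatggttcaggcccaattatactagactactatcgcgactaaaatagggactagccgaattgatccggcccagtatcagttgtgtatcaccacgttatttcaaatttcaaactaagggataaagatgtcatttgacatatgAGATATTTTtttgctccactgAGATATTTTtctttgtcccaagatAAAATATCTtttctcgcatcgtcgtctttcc
TZF5: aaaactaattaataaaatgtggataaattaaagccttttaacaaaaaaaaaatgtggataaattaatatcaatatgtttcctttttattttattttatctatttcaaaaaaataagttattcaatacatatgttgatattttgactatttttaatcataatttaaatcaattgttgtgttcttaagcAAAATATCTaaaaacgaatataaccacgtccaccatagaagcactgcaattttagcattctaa
REIL2: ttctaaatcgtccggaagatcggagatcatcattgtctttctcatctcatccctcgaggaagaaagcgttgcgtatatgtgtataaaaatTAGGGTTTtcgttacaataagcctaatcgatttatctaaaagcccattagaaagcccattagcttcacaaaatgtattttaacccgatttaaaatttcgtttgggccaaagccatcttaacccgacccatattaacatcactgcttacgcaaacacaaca
The GOLS3 promoter held 2 copies of CCGAC on the reverse strand, beginning 216 and 205 bases before the start, and RS5 held 1 copy at 152 bases. In GRP7 the evening element occurred 3 times within 76 bases of the start, on both strands, and in TZF5 once at 63 bases. The telo-box of REIL2 lay on the reverse strand at 160 bases. Only the element named for each gene is in capitals. Other elements that were searched for also occur unmarked, such as CCGAC in REIL2 and the G-box CACGTG in GOLS3.

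In a window of 250 bases before to 50 bases after the start, CCGAC on either strand was present in 24.1% of the promoters of genes called higher, 11.4% of those called lower, 16.2% of those of all genes tested and 15.3% of all annotated promoters. The evening element was present in 8.92% of the promoters of genes called higher and 1.44% of those called lower, against 3.02% of all genes tested and 2.49% of all promoters. Among list members, 4 of 21 starch-breakdown promoters held the evening element. In the lists of GRP7 (glycine-rich and related proteins) and TZF5 (mRNA decay) it was in 2 of 24 (8.33%) and 2 of 26 (7.69%). In the galactinol and raffinose list, CCGAC was in 3 of 12 promoters (25%). The telo-box was present in 13 of 31 promoters of ribosome-biogenesis genes and 23 of 51 of cytosolic ribosomal protein genes, against 6.17% of all promoters. In genes called higher its share was 4.81%, in those called lower 3.21% and in all genes tested 5.41%. A match is a description of the letters in the window and was not tested as a binding site.

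Genes of starch breakdown were mostly higher where they changed. Of 21 measured members, 9 were called higher and 4 lower, with a median log2 fold change of 0.45 against -0.03 over all genes tested. BAM3 (AT4G17090), the plastid β-amylase that releases maltose from starch, had 5064, 4453 and 5159.8 CPM in the 12 h libraries, against 218, 208 and 219 CPM at 22 °C. The groups were far apart, with a log2 fold change of 4.51 ± 0.12 (22.8-fold, adjusted p = 9.33e-14). SEX1 (AT1G10760), the glucan water dikinase that phosphorylates starch at the start of its breakdown, had 296, 295 and 254 CPM at 12 h, against 70.4, 64.2 and 72.7 CPM at 22 °C (4.08-fold, adjusted p = 9.53e-12). The plastid α-amylase gene AMY3 had 248 ± 10.3 CPM, against 67.9 ± 4.07 CPM (SD, n = 3 each, 3.65-fold), and PWD, ISA3, PHS2, SEX4, BAM4 and LSF1 were also called higher by log2 fold changes of at least 0.54. The lower members were other β-amylase genes, BAM5, BAM6 and BAM9, and LSF2, with log2 fold changes from -1.93 to -0.70. BAM9 (AT5G18670), for example, had 50.1, 41.4 and 48.2 CPM at 12 h, against 118, 118 and 121 CPM at 22 °C. Summed over the list, TPM, a level per transcript length, were 2397 to 2526 in the 12 h libraries, against 610 to 648 at 22 °C, of which BAM3 was the main part at 12 h. TPM have a fixed sum in each library, so that the rise of other genes lowers them.

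Starch synthesis showed members in both directions. SS4, which acts in granule initiation, had 89.9 ± 4.63 CPM at 12 h, against 30.7 ± 1.52 CPM at 22 °C, and the branching enzyme gene SBE2.1 had 123 ± 14.6 CPM, against 42.1 ± 2.75 CPM (SD, n = 3 each). Both rose 2.93- and 2.92-fold. In contrast, GBSS1 (AT1G32900), the granule-bound synthase that makes amylose, fell to 111, 105 and 95.8 CPM at 12 h, against 285, 294 and 341 CPM at 22 °C, and the isoamylase subunit gene ISA2 was 2.29-fold lower. In all, 3 of 16 measured members were called higher (18.8%) and 2 lower (12.5%), against 15.5% and 17.7% of all genes tested. With upper-quartile scaling 6 were lower.

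Sucrose metabolism and sugar transport followed with single strong members. Of 20 measured sucrose genes 5 were higher and 2 lower, and of 28 transporter genes 10 were higher and 4 lower, 7 with upper-quartile scaling. SUS1 (AT5G20830), a sucrose synthase, had 741, 734 and 708 CPM at 12 h, against 31.2, 32.6 and 34.8 CPM at 22 °C, a log2 fold change of 4.47 ± 0.08 (adjusted p = 6.47e-15), whereas its paralogue SUS4 was 1.92-fold lower. The 2 genes of sucrose phosphate synthase that were called moved in opposite directions. SPS2F had 355, 425 and 353 CPM, against 34.02, 63.6 and 57.3 CPM, and SPS4F had 141, 119 and 122 CPM, against 233, 228 and 241 CPM. Among transporters, STP13 (AT5G26340), a hexose-proton symporter of the plasma membrane, reached 290.2, 308 and 291 CPM, against 15.4, 21.9 and 19.9 CPM at 22 °C (15.5-fold). The vacuolar transporter genes TMT1 and TMT2 and the sucrose transporter genes SUC2, SUC3 and SUC4 were higher by log2 fold changes from 0.65 to 1.32, and the exporter gene SWEET15 was lower, with 18.8, 41.9 and 15.7 CPM, against 57.7, 90.3 and 103 CPM.

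The called galactinol, raffinose and trehalose genes were mostly higher. Of 12 measured members of the galactinol and raffinose list 6 rose and 1 fell (median log2 fold change 0.69), and of 18 trehalose genes 10 rose and 1 fell (median 0.80). GOLS3 (AT1G09350) had 746, 761.7 and 692 CPM at 12 h, against 3.51, 5.18 and 3.79 CPM at 22 °C, a 174-fold difference (log2 7.45 ± 0.20, adjusted p = 1.31e-13). RS5 had 1012, 1022 and 915 CPM, against 45.1, 61.1 and 60.4 CPM (17.7-fold), and GOLS2 had 93.8, 133 and 88.4 CPM, against 11.5, 24.6 and 23.9 CPM. Galactinol is the galactose donor for raffinose. MIPS2, which makes the inositol phosphate precursor, was 1.69-fold lower. In the trehalose list the phosphatase genes led. TPPE (AT2G22190) had 135, 122 and 137 CPM, against 18.6, 20.7 and 20.17 CPM, TPPG was 5.74-fold and TPPI 9.18-fold higher, and the single lower member was the synthase-family gene TPS5 at 24.2 ± 3.53 CPM, against 41.7 ± 6.42 CPM (SD, n = 3 each). The trehalose list had 2 lower members when replicate 2 of either group was left out, and also with upper-quartile scaling.

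The called genes of other solutes and of membrane lipids were mostly higher. Of 18 proline, GABA and polyamine genes 7 were higher and 1 lower. P5CS2 (AT3G55610), which catalyses the committed step of proline synthesis, had 822, 819 and 814 CPM at 12 h, against 168, 182 and 183 CPM at 22 °C (4.61-fold). GAD2, a glutamate decarboxylase that forms GABA, and ALDH5F1, which oxidises a product of GABA, were 2.58- and 3.75-fold higher. Of 18 genes of membrane lipids 6 rose and 1 fell, 3 with upper-quartile scaling. ADS2 (AT2G31360), an acyl-lipid desaturase, had 1931, 1734 and 1787 CPM, against 61.8, 64.4 and 63.2 CPM, a log2 fold change of 4.85 ± 0.15 (adjusted p = 3.71e-13). The sphingolipid desaturase gene SLD1 and the phospholipase gene PLDALPHA1 followed at 3.85- and 2.19-fold.

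In the fermentation and hypoxia list the called genes fell into a higher and a lower set. ADH1, the alcohol dehydrogenase gene, had 769.9, 756 and 762.1 CPM at 12 h, against 28.6, 30.5 and 33.99 CPM at 22 °C, a log2 fold change of 4.62 ± 0.09 (adjusted p = 7e-15). The pyruvate decarboxylase genes had 441, 468 and 496 CPM for PDC1, against 17.9, 19.2 and 27.8 CPM, and 263, 244 and 279 CPM for PDC2, against 10.99, 13.4 and 13.5 CPM. Together with SUS1 these were the 4 of 11 members called higher. The 4 called lower were HRA1, LBD41, PCO1 and PCO2, known as transcripts of the low-oxygen response, at log2 fold changes from -3.02 to -1.35 and at means of at most 9.13 CPM at 22 °C.

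**Figure D2:**
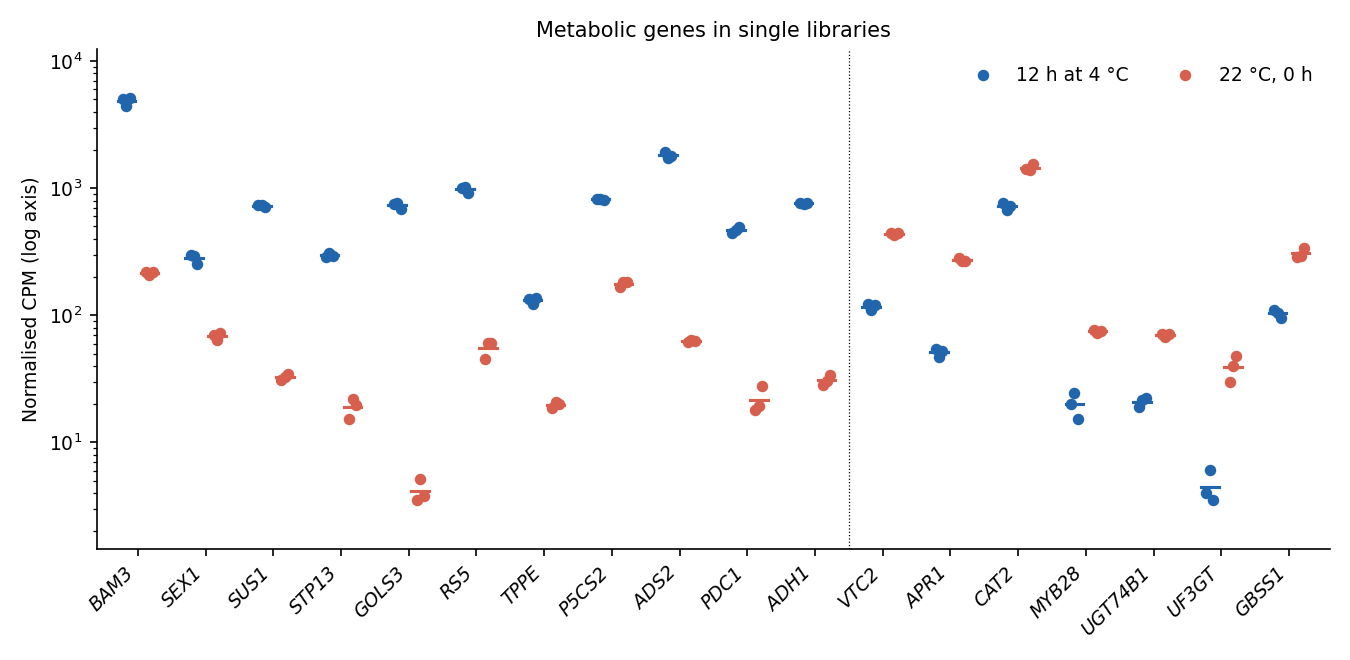
Normalised CPM (log axis) of 18 metabolic genes in each library, 12 h at 4 °C (blue, left) beside 22 °C (red, right), with bars at the group means. Genes left of the dotted line were called higher at 12 h and those right of it lower, and in no gene do the groups overlap.

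The called nitrogen genes were mostly higher and the called sulfate genes lower. Of 21 genes of nitrate uptake and nitrogen assimilation 6 were higher and 1 lower, NRT1.1, which was no longer called without 12 h replicate 2, and 2 were lower without 12 h replicate 1 or 3. The asparagine synthetase gene ASN1 (AT3G47340) had 121, 98.2 and 119 CPM at 12 h, against 38.2, 24.2 and 23.2 CPM at 22 °C, and GDH2, a glutamate dehydrogenase, was 2.86-fold higher. Of 19 sulfate genes none was called higher and 7 were lower (median -0.30). APR1 (AT4G04610), which reduces activated sulfate, had 54.2, 47.4 and 52.02 CPM, against 282, 269.7 and 266 CPM (5.32-fold lower, adjusted p = 1.22e-12), and APR2 had 129, 99.6 and 123 CPM, against 391, 390.4 and 372 CPM. The sulfur-deficiency marker genes SDI1 and LSU1 were 4.07- and 3.45-fold lower.

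The called genes of glucosinolate and phenolic metabolism were mostly lower. Of 19 aliphatic glucosinolate genes 13 fell and none rose (median log2 fold change -0.86), and 7 of 16 indolic genes fell and 3 rose. MYB28 (AT5G61420), the main activator of aliphatic glucosinolate genes, had 19.9, 24.7 and 15.3 CPM at 12 h, against 77.1, 72.9 and 75.01 CPM at 22 °C. CYP79F1, the first enzyme of the core pathway, had 59.7, 40.9 and 55.5 CPM, against 183, 149.97 and 165 CPM, and SOT17, the last, was 4.57-fold lower. In the indolic branch the regulators MYB51 and MYB34 and the glucosyltransferase gene UGT74B1 were 3.43-, 3.02- and 3.35-fold lower. Its 3 higher members, CYP81F2, CYP81F3 and IGMT2, modify the indole ring, and 49.3% of the 31-base words of IGMT2 occur in other loci, so its reads could be shared with a paralogue. Of 14 flavonoid and anthocyanin enzymes 10 fell (median -1.10), among them UF3GT (AT5G54060) with 3.99, 6.02 and 3.501 CPM, against 30.01, 39.6 and 47.5 CPM, and the flavonoid hydroxylase gene TT7 with 9.97, 14.2 and 10.4 CPM, against 25.4, 32.8 and 41.5 CPM. The single higher member, UGT78D3, had 3.02, 2.07 and 2.38 CPM at 12 h and no read in the 22 °C libraries. Phenylpropanoid genes were divided, with 5 of 18 lower and 2 higher, PAL2 and HCT. Of 21 wax and cutin genes 6 were lower and 2 higher, 1 higher without 12 h replicate 3 or 22 °C replicate 2 or 3, and the lower ones were led by KCS1 at 31.04, 30.7 and 27.8 CPM, against 70.3, 84.2 and 83.5 CPM.

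The photosynthetic apparatus showed few called genes. None of 20 Calvin cycle genes, 1 of 14 photorespiration genes and 5 of 50 photosystem and antenna genes were called, the last all lower, and the photosystem count was 3 without 12 h replicate 2. The photorespiration count was 2 without 12 h replicate 1 or 22 °C replicate 2. With upper-quartile scaling 2 Calvin cycle and 4 photorespiration genes were lower. Summed TPM of the photosystem list were 108881 to 126413 in the 12 h libraries, against 142273 to 155327 at 22 °C, while its median log2 fold change was -0.12. The photorespiratory exception was CAT2 (AT4G35090), the peroxisomal catalase, at 759, 669.5 and 726 CPM, against 1411, 1397 and 1544 CPM, whereas the catalase gene CAT1 rose to 47.03 ± 4.19 CPM, against 14.3 ± 0.857 CPM (SD, n = 3 each). Of 18 photoprotection and antioxidant-vitamin genes 3 were higher and 6 lower. In ascorbate synthesis the genes of the control step were lower, with 122, 109.6 and 119.7 CPM for VTC2 (AT4G26850), against 446, 428 and 442 CPM, and VTC5 2.05-fold lower. SEP2, encoding a stress-enhanced protein related to antenna proteins, was 2.204-fold lower, and VTE1 and VTE4 of tocopherol synthesis were also called lower. The 3 higher members were ELIP1, ELIP2 and NPQ1, at 2.71-, 1.81- and 2.17-fold. In chlorophyll synthesis PORB had 516, 415 and 471 CPM, against 195, 165 and 145 CPM, and GUN4 and CH1 were lower at 1.71- and 1.66-fold. The glutathione peroxidase gene GPX6 had 545 ± 29.6 CPM, against 113 ± 18.7 CPM, the largest difference among the antioxidant enzymes. Of 26 antioxidant genes 2 were higher (7.69%) and 4 lower (15.4%), against 15.5% and 17.7% of all genes tested. Without 22 °C replicate 1, 4 were higher. In respiration 5 of 27 genes were higher (18.5%, against 15.5% of all genes tested) and none lower. The higher genes included PPCK1, a kinase of phosphoenolpyruvate carboxylase, at 3.597-fold.

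Genes of the growing cell wall changed in both directions. Of 26 expansin genes 8 rose and 8 fell, and with upper-quartile scaling 4 rose. The expansin-like A genes were all called higher, with 276, 289 and 279 CPM for EXLA1 (AT3G45970) at 12 h, against 16.7, 15.8 and 13.4 CPM at 22 °C (18.4-fold), and 7.36- and 17.7-fold for EXLA2 and EXLA3. The α-expansins of leaves and hypocotyls were among the lower ones, whereas the α-expansin gene EXPA7, a root marker, was called higher (log2 0.59). EXPA8 (AT2G40610) had 15.1, 10.3 and 10.4 CPM, against 117, 123 and 107 CPM (9.63-fold lower), and EXPA1, EXPA4, EXPA5 and EXPA6 fell by 1.27 to 1.42 on the log2 scale. Of 28 genes for xyloglucan endotransglucosylase/hydrolases 8 rose, with XTH20 at 74.7, 81.4 and 77.7 CPM, against 8.04, 10.2 and 7.901 CPM, and 8 fell, with XTH16 at 3.88, 3.19 and 3.57 CPM, against 24.1, 18.8 and 17.7 CPM.

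Cellulose and pectin genes differed from each other. Of 15 genes of cellulose synthases and their partners 8 were called higher and none lower (median 0.51), but most lay just over the fold threshold. COB, a membrane-anchored protein needed for oriented cellulose deposition, had 275, 295 and 272 CPM at 12 h, against 119, 129.9 and 134 CPM at 22 °C (2.201-fold), and the primary-wall synthase genes CESA1 and CESA3 were 1.47- and 1.52-fold higher. Only COB was called with upper-quartile scaling, and 5 genes were called without 22 °C replicate 2. Of 25 genes for pectin methylesterases and fasciclin-like arabinogalactan proteins 12 fell and 1 rose (median -0.35). FLA4 had 6.47, 7.15 and 6.72 CPM, against 27.6, 28.02 and 31.8 CPM, and FLA9 54.6, 47.7 and 54.9 CPM, against 119.9, 119 and 116 CPM. Among aquaporins 3 of 20 were lower (15%) and 2 higher (10%), against 17.7% and 15.5% of all genes tested. The lower count was 5 without 12 h replicate 2 and 7 with upper-quartile scaling. PIP2E rose to 648 ± 49.1 CPM, against 207 ± 12.6 CPM (SD, n = 3 each), and PIP2;5 was 2.06-fold higher.

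In the cell-cycle list 14 of 42 members fell and 3 rose (median -0.24). Among members above 10 CPM at 22 °C, the largest falls were those of inhibitors of cyclin-dependent kinases. KRP1 (AT2G23430) had 4.096, 1.95 and 3.78 CPM at 12 h, against 23.9, 24.3 and 17.98 CPM at 22 °C, SMR1 had 8.25, 7.4996 and 6.79 CPM, against 39.2, 33.9 and 33.9 CPM, and KRP2 was 2.896-fold lower. Cyclins were lower as well, among them CYCD3;1, CYCA1;1 and CYCA2;3, so the list held both promoters and inhibitors of division among its lower members. Another inhibitor gene, KRP6, was 1.55-fold higher. CYCA1;2 and CYCB2;3 were also called higher, but 19.6% of the 31-base words of CYCB2;3 are shared with other loci. Of 36 DNA replication genes 6 were lower, 16.7% against 17.7% of all genes tested, and 2 were higher. TSO2, a ribonucleotide reductase subunit, had 27.97, 34.4 and 29.5 CPM, against 57.5, 56.1 and 61.02 CPM. MCM2 had 12.6, 14.6 and 12.7 CPM, against 20.9, 20.5 and 19.4 CPM. Of 20 core histone genes 5 were lower, 3 without 12 h replicate 2, and 3 higher, the last including HTA3 and HTA5, which encode the variant H2A.X, at 2.31- and 1.84-fold. Tubulin genes rose in 5 of 15 cases and fell in 1. TUB9 (AT4G20890) had 469, 468 and 459 CPM, against 74.97, 68.01 and 72.4 CPM (6.49-fold, adjusted p = 1.8e-13), and TUB8 was 1.48-fold lower.

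Markers of cell types were followed beside these lists. Of 15 root markers 1 was called, EXPA7, which was higher. Of 9 stomatal markers MUTE, EPF1 and EPF2 were lower at log2 fold changes of -2.63, -1.28 and -1.48, MYB60 was higher, and the summed TPM of that list were 39.6 to 49.4 at 12 h, against 50.2 to 61.002 at 22 °C. Of the seed storage and flower markers 2 each were measured and none was called. Their part in the changes of cell-cycle genes was not tested.

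Each of the auxin lists held members called in both directions. Of 24 Aux/IAA repressor genes 8 rose and 2 fell, whereas 25 of 60 SAUR genes fell and 14 rose (median -0.42). IAA2 (AT3G23030) had 343, 329.9 and 359.7 CPM at 12 h, against 90.1, 77.5 and 73.4 CPM at 22 °C, IAA19 had 28.8, 25.4 and 34.4 CPM, against 6.97, 4.27 and 4.83 CPM, and IAA29 had 14.5, 21.1 and 18.1 CPM, against 2.29, 1.83 and 1.196 CPM. These genes are transcribed early after auxin and encode repressors of auxin response. Among SAUR genes, SAUR78 (AT1G72430) had 9.05, 7.62 and 7.702 CPM, against 64.4, 52.6 and 58.5 CPM, and SAUR14 was 7.396-fold lower. The SAUR19 subfamily, known to promote cell expansion, went the other way, with SAUR19, SAUR20, SAUR22, SAUR23 and SAUR24 higher by log2 fold changes from 1.07 to 2.37. In SAUR22, 7.53% of the 31-base words occur in other loci, and 7 of 80 SAUR loci exceed 20%. Reads could therefore be shared among paralogues. Summed TPM of all SAUR genes were 919 to 1001 in the 12 h libraries, against 1343 to 1532 at 22 °C. In the list of synthesis, conjugation and transport 12 of 34 members were higher, 8 with upper-quartile scaling, and 10 lower. The synthesis genes YUC8 (AT4G28720) and YUC9 had 34.5, 33.5 and 31.02 CPM and 33.4, 31.1 and 31.3 CPM, against 4.37, 3.79 and 4.16 CPM and 1.02, 3.01 and 2.703 CPM, and GH3.2, whose product conjugates auxin to amino acids, had 96.5, 83.3 and 80.6 CPM, against 4.17, 6.01 and 5.98 CPM. The efflux carrier gene PIN4 was 2.44-fold lower and the receptor gene AFB3 1.63-fold lower.

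Gibberellin genes showed 9 of 29 members higher and 10 lower, spread over synthesis, inactivation and signalling. The inactivating oxidase genes GA2OX6 (AT1G02400) and GA2OX1 had 71.5, 64.1 and 72.3 CPM and 18.4, 17.5 and 19.1 CPM at 12 h, against 5.8997, 6.405 and 6.29 CPM and 1.12, 1.35 and 1.92 CPM at 22 °C. The last activating step was lower, with GA3OX1 at 2.38-fold and GA3OX2 also called. Within the DELLA repressors, RGL3 (AT5G17490) had 51.1, 49.01 and 49.6 CPM, against 4.07, 3.44 and 3.95 CPM (13.1-fold), while GAI had 12.9, 13.2 and 10.7 CPM, against 27.2, 25.3 and 23.9 CPM, and RGL1 and RGL2 were lower. The receptor gene GID1A rose to 92.1 ± 1.34 CPM, against 17.8 ± 2.96 CPM (SD, n = 3 each). Brassinosteroid genes had 4 of 29 higher (13.8%) and 6 lower (20.7%), against 15.5% and 17.7% of all genes tested. With upper-quartile scaling 9 were lower. BEE3, an early-response gene, fell to 2.64, 2.01 and 1.68 CPM, against 26.2, 20.04 and 18.8 CPM, the receptor-kinase inhibitor gene BKI1 was 4.83-fold lower, and PRE6 was 3.13-fold higher.

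Cytokinin genes were called higher in 11 of 45 cases and lower in 4, 8 with upper-quartile scaling. The cytokinin response factor gene CRF4 (AT4G27950) had 69.8, 57.9 and 57.3 CPM at 12 h, against 5.04, 4.096 and 3.79 CPM at 22 °C, a log2 fold change of 3.84 ± 0.14 (adjusted p = 1.87e-12), and CRF2, CRF3 and CRF7 were also higher. The type-A response regulators split, with ARR7 3.97-fold higher and ARR8 2.42-fold lower. For ethylene, 5 of 27 members rose (18.5%, against 15.5% of all genes tested), all of them genes of ACC synthases. None of these 5 both reached a mean of 10 CPM at 12 h and had groups that did not overlap. In the same list 8 fell, including ACS11, ACS12 and the F-box genes EBF1 and EBF2, which target the EIN3 activator. EBF1 had 48.7, 51.8 and 43.9 CPM, against 87.4, 99.7 and 95.8 CPM.

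Jasmonate, salicylic acid and abscisic acid lists also held both directions. Of 33 jasmonate genes 12 were higher and 7 lower. The repressor gene JAZ1 (AT1G19180) had 209.6, 209.6 and 221 CPM at 12 h, against 24.5, 27.4 and 29.2 CPM at 22 °C (7.88-fold, adjusted p = 1.77e-13), JAZ3 was 5.25-fold higher, and CYP94B3, which inactivates jasmonoyl-isoleucine, was higher with 43.4, 17.6 and 42.4 CPM, against 2.14, 4.401 and 4.21 CPM. The activators MYC2, MYC3 and MYC4 were lower, with MYC4 at 6.95, 9.33 and 7.42 CPM, against 26.2, 28.6 and 32.9 CPM. Of 16 salicylic acid genes 7 were lower and 3 higher, 5 without 22 °C replicate 2. WRKY70 fell to 5.12, 6.14 and 7.21 CPM, against 38.96, 31.2 and 35.7 CPM, the receptor gene NPR4 was 2.401-fold lower and NPR1 1.84-fold higher. In the core abscisic acid pathway 11 of 27 members rose and 6 fell. The receptor genes PYR1, PYL1, PYL4 and PYL5 were lower, with 20.6, 18.8 and 15.5 CPM for PYL4, against 52.9, 55.6 and 47.7 CPM, whereas PYL7 had 68.5, 73.3 and 58.96 CPM, against 12.9, 15.2 and 12.99 CPM. The phosphatase genes ABI1 and ABI2, negative regulators of the pathway, were higher, with ABI2 at 119, 136 and 91.4 CPM, against 15.2, 23.2 and 20.5 CPM. ABF1 (AT1G49720), a bZIP factor of abscisic acid response, had 570.1, 561 and 638 CPM, against 4.27, 4.36 and 5.46 CPM, a 126-fold difference. Of 14 strigolactone and karrikin genes 6 were higher and 2 lower, which became 4 and 4 with upper-quartile scaling, and SMXL8, a repressor of strigolactone response, had 59.5, 59.5 and 54.6 CPM, against 4.12, 5.84 and 6.13 CPM.

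**Figure D3:**
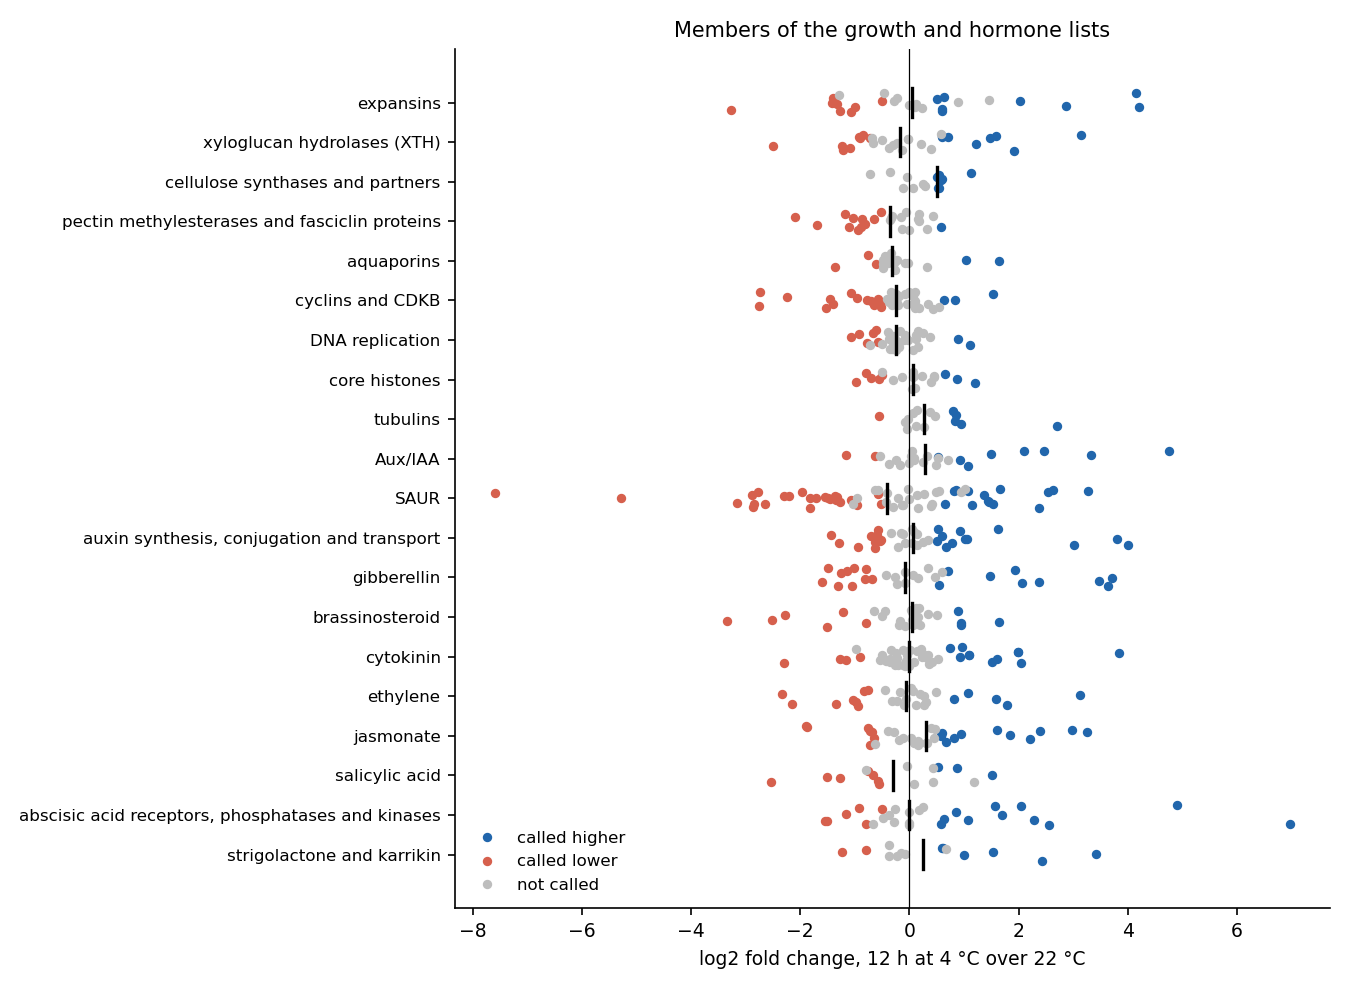
Log2 fold change (12 h at 4 °C over 22 °C) of each measured member of the growth and hormone lists, coloured by call, with a black bar at the median of each list. The auxin, gibberellin and jasmonate lists have called members on both sides of 0, and the cellulose list has no member called lower.

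RNA-processing genes had the highest median of the 4 themes. Of 24 genes for glycine-rich, cold shock domain and hnRNP-like proteins 8 rose and none fell (median 0.39). GRP7 (AT2G21660) had 2811, 2356 and 3019 CPM at 12 h, against 100.4, 77.9 and 85.7 CPM at 22 °C, a log2 fold change of 4.95 ± 0.17 (31.02-fold, adjusted p = 1.36e-12). Its close relative GRP8 had 550.3, 468 and 541 CPM, against 109, 104 and 104 CPM. GRP7 acts as an RNA chaperone and its transcript is known to cycle with an evening peak. The cold shock domain gene CSP1 and the mitochondrial GR-RBP2 were 2.76- and 2.22-fold higher. Summed TPM of the list were 4350 to 5065 at 12 h, against 1321 to 1408 at 22 °C.

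Splicing factors of the serine and arginine-rich (SR) family did not move together. Of 20 members 2 were higher and 5 lower. RS40 (AT4G25500) had 262, 239.8 and 279 CPM at 12 h, against 40.1, 40.1 and 43.8 CPM at 22 °C (6.29-fold), and SCL30A was called by a small margin and not with upper-quartile scaling. SR45A had 15.6, 17.4 and 14.9 CPM, against 41.5, 45.1 and 46.1 CPM, and SR34B and SCL33 were 2.802- and 1.84-fold lower. In the spliceosome core 5 of 35 members rose, 14.3% against 15.5% of all genes, and none fell. STA1, a U5-associated splicing factor known from cold-sensitive mutants, had 159, 153 and 172 CPM, against 45.4, 43.5 and 46.002 CPM (3.59-fold), and the other 4 changed by at most 1.64-fold, with 2 called under upper-quartile scaling.

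The called genes of mRNA decay, the exosome and polyadenylation were higher with 1 exception. Of 25 mRNA decay genes 7 rose and 1 fell. TZF5 and OZF2 (AT4G29190), tandem zinc finger proteins of plant stress response, had 94.4, 77.5 and 91.5 CPM and 394, 357 and 375 CPM at 12 h, against 5.75, 4.096 and 5.93 CPM and 34.9, 34.9 and 31.2 CPM at 22 °C. SOV, annotated as RRP44B and also a member of the exosome list, encodes an exoribonuclease and had 231, 225 and 211 CPM, against 21.9, 23.5 and 22.3 CPM (9.85-fold). The deadenylase gene CAF1A (AT3G44260) fell to 3.56, 4.02 and 3.08 CPM, against 39.1, 31.4 and 31.6 CPM (9.51-fold lower), while its paralogue CAF1B was 2.03-fold higher. A second member was lower, 2 in all, when 22 °C replicate 1 or 12 h replicate 2 was left out. Of 10 members of the list of the exosome and its cofactors 3 rose, SOV among them. With upper-quartile scaling SOV alone was called and no other member of that list. Whether SOV acts in the exosome was not tested. Of 23 cleavage and polyadenylation genes 3 rose, 13.0% against 15.5% of all genes tested. CSTF64, which binds downstream of the cleavage site, had 30.1, 30.5 and 29.97 CPM, against 9.97, 9.63 and 9.93 CPM, and FPA, which promotes use of proximal polyadenylation sites, had 80.9, 71.8 and 76.9 CPM, against 33.7, 32.4 and 38.2 CPM.

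Genes of ribosome biogenesis were higher where they were called. Of 31 biogenesis genes 12 were called higher and none lower (median 0.43). Of 46 genes of cytosolic ribosomal proteins 2 were higher, 1 without replicate 3 of either group, and none lower (median 0.27). Nucleolin NUC-L1 (AT1G48920), which acts in rRNA transcription and processing, had 394, 389 and 439 CPM at 12 h, against 207, 189 and 191 CPM at 22 °C. The late 60S maturation factor genes REIL2 and LSG1-1 had 71.8, 75.3 and 69.6 CPM and 35.7, 33.7 and 29.5 CPM, against 31.1, 30.7 and 29.4 CPM and 4.17, 5.45 and 4.11 CPM, and SWA1, an 18S rRNA processing factor, was 2.92-fold higher. Of 20 DEAD-box RNA helicase genes 6 rose, 4 with upper-quartile scaling, led by PRH75 at 225, 213 and 242 CPM, against 100.6, 88.2 and 94.2 CPM, and RCF1, a helicase known from cold-sensitive mutants, had a log2 fold change of 0.61. Plastid transcription genes had 2 of 24 higher (8.33%) and 4 lower (16.7%), against 15.5% and 17.7% of all genes tested. Small RNA genes had 1 of 29 higher and 7 lower, 10 with upper-quartile scaling. The small RNA gene DRB3 was lower at 3.77, 2.78 and 3.36 CPM, against 22.8, 20.3 and 18.3 CPM.

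**Figure D4:**
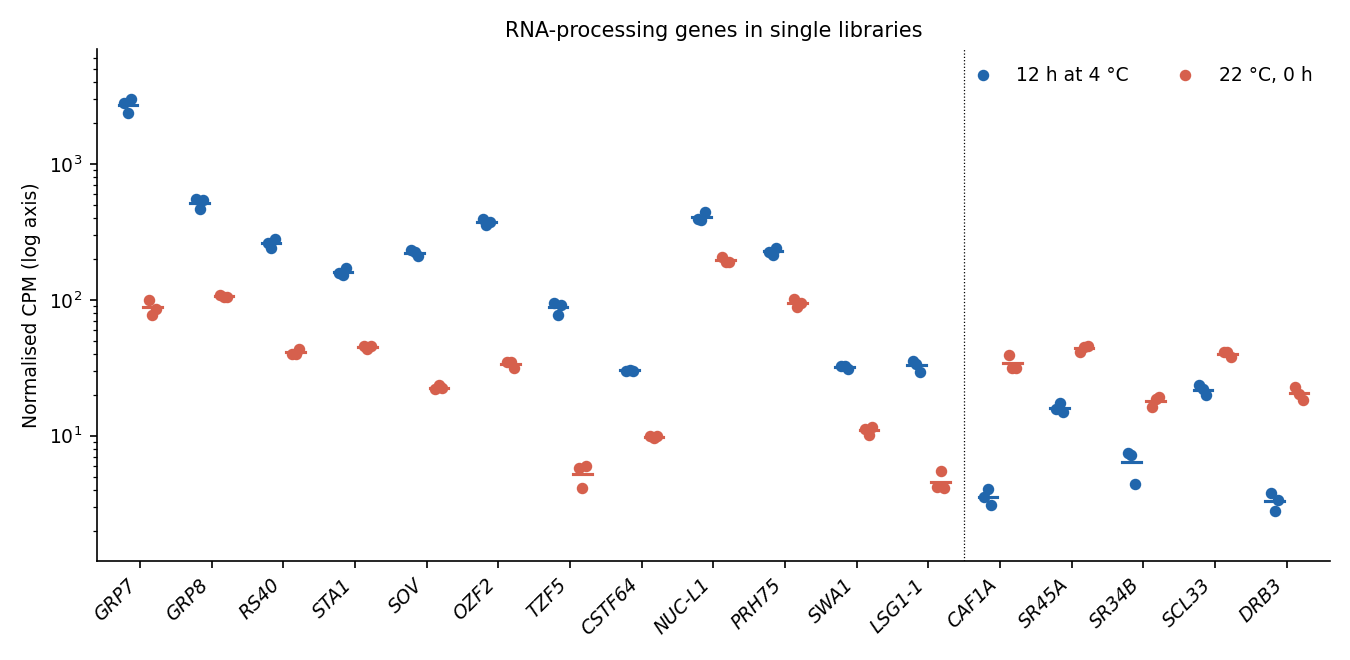
Normalised CPM (log axis) of 17 RNA-processing genes in each library, 12 h at 4 °C (blue, left) beside 22 °C (red, right), with bars at the group means. GRP7 reaches 2729 CPM on average at 12 h, and CAF1A, SR45A, SR34B, SCL33 and DRB3, right of the dotted line, were called lower.

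The share of each transcript among the reads of its locus was tested to ask whether isoform use changed. Of 6739 loci with at least 2 measured transcripts, 163 (2.42%) were called at an adjusted p under 0.05 with a shift of at least 10 percentage points. Of 111 RNA-processing loci 4 were called (3.60%), and 13 of 410 over all lists. Read shares give more weight to longer transcripts. In FPA, transcript 2 took 75.4%, 68.5% and 76.96% of the reads in the 12 h libraries, against 32.2%, 20.7% and 28.6% at 22 °C, and transcript 1 took 2.3%, 0% and 0%, against 14.4%, 24.9% and 15.9%. In PTB1, which encodes a polypyrimidine tract-binding protein, transcript 1 took 80.9%, 92.8% and 94.7%, against 57.98%, 65.8% and 63.3%, and transcript 4 was estimated at 0 in the 12 h libraries and at 11.2%, 12.7% and 13.8% at 22 °C. In U2AF65A, the large subunit of the 3′ splice site factor, transcript 3 took 9.2%, 13.1% and 11.02%, against 43.3%, 35.1% and 29.4%, and in CPSF160, a cleavage factor subunit, transcript 1 took 98.02%, 100% and 100%, against 81.1%, 69.05% and 86.97%. The shares of the groups did not overlap in these transcripts, but each of the 4 loci lost its call when 1 of at least 3 different libraries was left out. FPA was also not called when the fit held only the 6 libraries. PTB1 lost its call without each of the 6 libraries in turn.

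Changes of isoform use that kept their call without any single library were found in 4 metabolic and hormone loci. In GAD2, transcript 3, annotated with 5 exons and 365 residues of protein against 6 exons and 494 residues in transcript 2, took 58.2%, 58.9% and 60.7% of the reads at 12 h, against 5.7%, 6.1% and 9.1% at 22 °C (locus adjusted p = 1.57e-07). Transcript 2 took 41.7%, 41.03% and 39.3%, against 94.00%, 93.3% and 90.9%. Transcript 3 is 5070 bases long and transcript 2 is 2053, so the read share overstates its share of molecules. In the response regulator gene ARR4, transcript 2 took 42.3%, 28.7% and 36.7%, against 2.4%, 2.6% and 3.5% (adjusted p = 0.000305), a call that was lost when the fit held only the 6 libraries. In the brassinosteroid synthesis gene DIM, transcript 2 took 82.6%, 75.4% and 71.96%, against 45.2%, 51.5% and 55.05%, with the same protein length in all 3 transcripts, and in the kinase gene SNRK2.2 transcript 2 took 24.8%, 18.9% and 15.4%, against 0.7%, 0.7% and 0%.

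**Figure D5:**
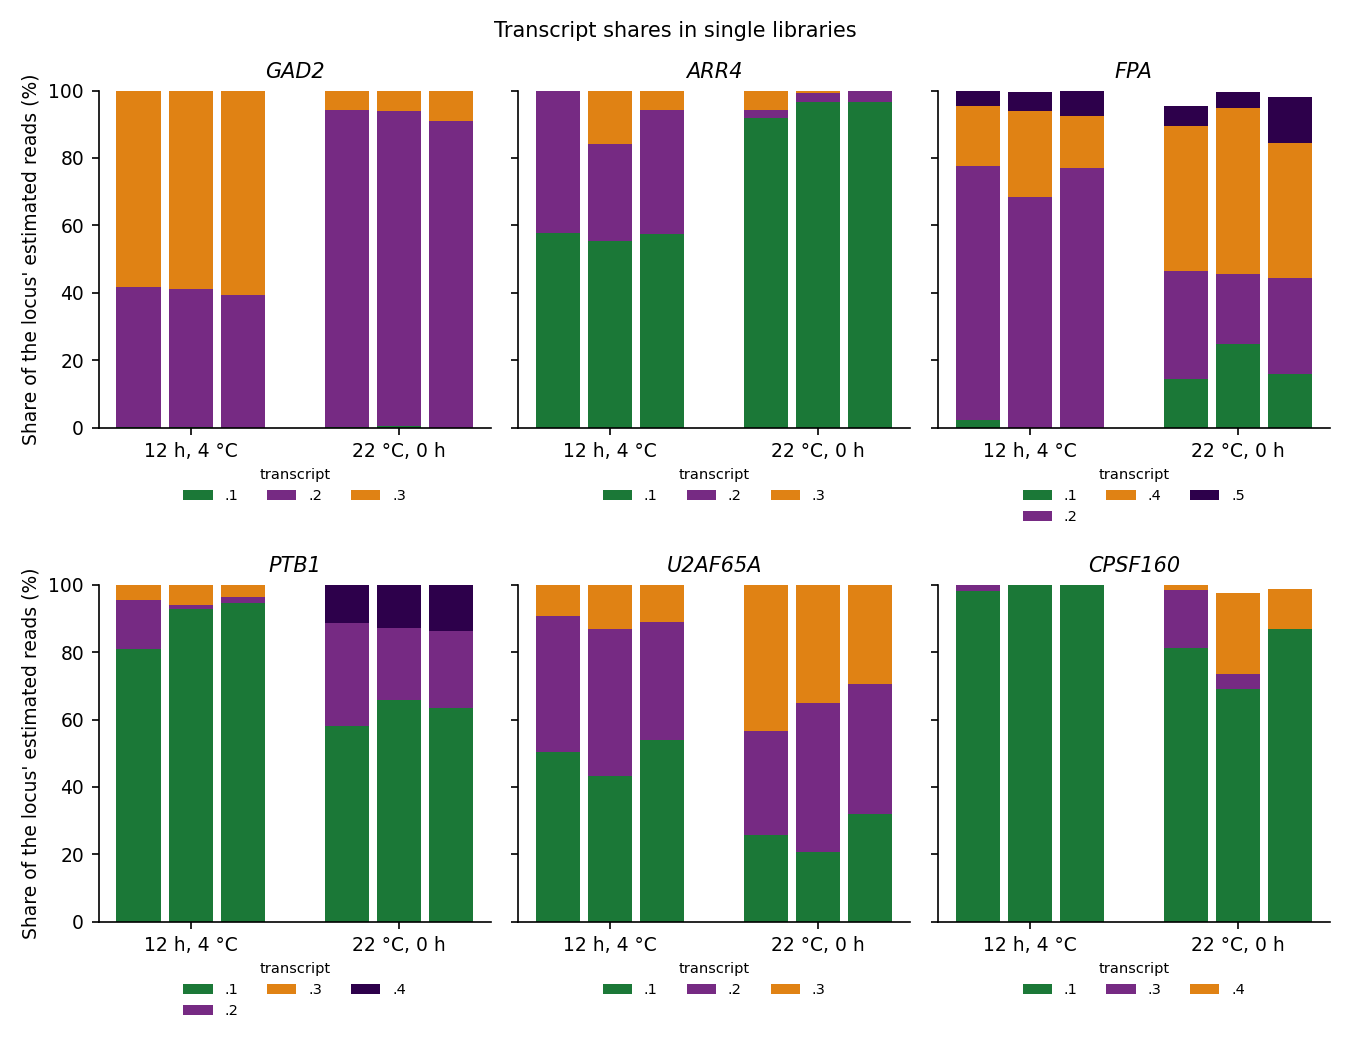
Share of each measured transcript in the estimated reads of 6 loci, 1 stacked bar per library, 12 h at 4 °C (left) beside 22 °C (right). Transcripts that did not pass the filter on low values are not drawn, and GAD2 transcript 3 takes 58.2% to 60.7% at 12 h, against 5.7% to 9.1% at 22 °C.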

How the data were processed

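RNA-seq libraries of Arabidopsis seedlings were analysed from the files of transcript quantification. Per the labels and the methods, the authors trimmed reads and removed rRNA, and Salmon estimated counts per Araport11 transcript; the deposited values are estimated counts (not whole numbers) and TPM, which are scaled to a fixed sum in each library.

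Estimated counts were summed per locus and rounded. edgeR 4.0.16 (R 4.3.3, limma 3.58.1) was used with TMM factors, filterByExpr by group and the quasi-likelihood test in 1 model over 9 libraries, with Benjamini-Hochberg adjustment over the 20460 genes tested. The 12 h libraries held 15910839 to 20881860 assigned reads and the 22 °C libraries 17923585 to 21647801, which limits calls among genes of a few CPM. Transcript use was tested with diffSpliceDGE (Simes method) at loci with at least 2 measured transcripts. Replicates are separate plates.

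Lists hold 1492 entries (1479 loci), matched by symbol, synonym, symbol pattern or product description. A further 93 entries could not be matched and were left out. Another 52 were excluded because the annotated product was another gene. Members and lists were chosen with earlier results of these data known. Named genes were taken per list as up to 4 called members with the largest change, up to 3 in each direction where both occurred, provided that the 3 libraries of each condition were separate and the higher condition reached 10 CPM. To these were added the 15 largest rises and falls of all genes, the 10 largest gains and losses in mean CPM, and RNA-processing loci called in transcript use. Part of them is given in the text. Genes named outside this rule, such as PDC2, GID1A, CAF1B, RCF1 and UGT78D3 and those given only as members of a subfamily or as called, were chosen after their values were seen. Promoters were read from RefSeq, assembly TAIR10.1, and 53045 of 53467 transcripts matched it by name. Alternatives were other scaling, filters, thresholds and tests, and leaving out single libraries.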

Additional observations from a re-analysis of the deposited data

How the results depend on the processing

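The counts of 3166 genes higher and 3616 lower at 12 h moved most with the fold threshold and the scaling. They were 1801 and 1691 with the log2 threshold raised to 1, 5020 and 5100 with no fold minimum, and 2559 and 4739 with upper-quartile factors. Leaving out 1 library gave 3108 to 3249 higher and 3354 to 3575 lower. Of 285 named genes none changed direction, and 17 lost their call with upper-quartile factors, among them CESA1, CESA3, HCT, SCL30A, SKIP, RRP41, PAB8 and RPL10C. No call of a named gene was lost with the DESeq2 1.42.0 Wald test, DESeq2 size factors, length-scaled TPM, no filter on low counts or only the 6 libraries, and 1 to 4 were lost when 1 library was left out. Transcript usage was less stable, with 62 of 163 loci at an adjusted p under 0.01, 109 with a shift of at least 20 percentage points, 152 with only the 6 libraries and 78 to 108 when 1 library was left out. The cause was not tested.

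With the replicate number as a block (replicate block), 3123 genes were higher, 3542 lower and 83 loci changed in usage, and FPA and PTB1 were no longer called in usage (adjusted p = 0.0688 and 0.0755). Deviations of same-numbered libraries correlated at 0.26, 0.21 and -0.04, and not every library correlated best with its own number. With deviations taken from the mean of only 3 libraries per group, these values cannot decide whether the numbers pair the samples. Pairing was not tested.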

Other observations

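Outside the lists, the 15 largest falls among genes with at least 10 CPM at 22 °C and separate groups included AT1G72910, at 27.1-fold lower but with 25.7% of its 31-base words shared with other loci, BBX32 at 25.4-fold and AT3G26510 at 14.8-fold. Regulatory genes further down this order were RAV2, MYB70 and OFP15. RAV2 (AT1G68840), annotated as related to ABI3/VP1, had 28.1, 25.2 and 22.97 CPM at 12 h, against 295, 299 and 281 CPM at 22 °C (11.5-fold lower). MYB70 (AT2G23290), a MYB-domain protein gene, had 2.48, 2.42 and 1.26 CPM, against 28.6, 21.4 and 26.04 CPM, and OFP15, of the ovate family, was 10.1-fold lower. None of these groups overlapped.

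Abundant transcripts of photosynthesis showed small differences that took large numbers of reads. RCA, encoding rubisco activase, had 7287 ± 825 CPM at 12 h, against 8449 ± 197 CPM at 22 °C (SD, n = 3 each), a log2 fold change of -0.21, which was under the fold threshold. CA1, encoding a carbonic anhydrase, had 2626 ± 469.7 CPM, against 3119 ± 106 CPM (log2 -0.25), with overlapping libraries, and was not called either. Among genes that gained most in mean CPM, the dehydrin-family gene AT1G54410 had 2705 ± 115 CPM, against 662 ± 15.9 CPM, and AT3G15450, annotated as an aluminum-induced protein, had 2357 ± 352 CPM, against 219 ± 33.1 CPM.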
